A study of Danio rerio with 14 samples.

Results

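To follow how the loss of Pou5f3 changed the relative strength of H3K27ac across the zebrafish genome, the H3K27ac peaks of wild-type (WT) embryos were ranked beside those of MZspg embryos, and the peaks found in both were compared. Peaks on chromosomes 1 to 25 of the danRer11 assembly entered, without the stretch of chromosome 16 from 36 to 37 Mb. A WT peak was called shared when at least 1 MZspg peak overlapped it by 1 bp or more. This held for 58215 of 125602 WT peaks, and these 58215 shared peaks are described here. Each list was ranked by fold enrichment, that is, the signal at the summit of a peak divided by its local background. The rank was expressed as a percentile, 100 for the highest peak of a list and 0 for the lowest. The rank shift is the MZspg percentile of a shared peak minus its WT percentile, so a positive shift marks a place that stood higher in the MZspg list than in the WT list.

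The histone acetylation H3K27ac marks regulatory elements in use, enhancers as well as promoters. The histone methylation H3K4me3 is mainly a promoter mark. In the zebrafish embryo both marks appear as the zygotic genome is activated. Pou5f3, a POU domain factor related to mammalian Oct4, is supplied by the mother and acts in the activation of the zygotic genome. MZspg embryos carry no functional Pou5f3, neither as maternal nor as zygotic product. MZsox19b embryos lack the SoxB1 factor Sox19b in the same way and still have Pou5f3.

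All libraries came from whole embryos of AB/TL background at 4.3 hours post fertilization (hpf), which is dome stage in the wild type. The stage of mutant embryos was read from wild-type embryos laid together with them, so the genotypes were matched by time and not by their own morphology. The WT and the MZspg H3K27ac library each pooled the material of 2 ChIP experiments, and there was 1 library a side. For this reason no test was made and no p-value is given. The MZsox19b H3K27ac replicates, 1 ChIP experiment each, are the only libraries of the series that measure how far ranks move within a genotype, and the same value for replicate 1 against replicate 2 is given beside the main results. Peaks are not replicates, neighbouring peaks are not independent, and the intervals given cover counting over peaks only. In whole embryos, fewer cells with the mark and less mark per cell cannot be told apart. The genotype of a library cannot be checked from positions of peaks. An annotation of the danRer11 build was not used here, so peaks are given by position and carry no gene names.

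The lists of the compared genotypes were close in length and in the scale of their values. MZspg had 122782 peaks against the 125602 of WT, with a median width of 263 bp against 247 bp and a median fold enrichment of 2.68 against 2.62. At the top, the WT fold enrichment reached 47.5 and that of MZspg 62.9. Tied values were common: the WT list held 9272 distinct pairs of fold enrichment and q-value and the MZspg list 7223, and the largest group of fully tied peaks took 7.07% and 8.09% of the list. Ranks were used because fold enrichment also varies with read depth and ChIP efficiency, neither of which a peak list holds.

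In WT, 46.3% of the peaks were shared (95% interval 46.1 to 46.6%), and in MZspg 45.1% (44.8 to 45.3%). Of the peaks of MZsox19b replicate 1, 77.3% were shared with replicate 2, and of those of replicate 2, 61.5% were shared with replicate 1. The replicate lists covered more sequence, 89.2 and 109 Mb, than those of WT with 50.6 Mb and MZspg with 57.1 Mb. An overlap of 1 bp is easier to reach in such lists, so these shares are not a like comparison. Shared WT peaks were mostly strong ones, with a median percentile of 67.0 against 37.9 for WT peaks with no MZspg partner. The limit of 1 bp decided few of them, since 219 shared peaks overlapped MZspg peaks by at most 10 bp and 164 unshared peaks had an MZspg peak within 10 bp. In 45569 cases a single WT peak faced a single MZspg peak, and these are called one-to-one pairs. The remainder belonged to places where one list had a wide peak and the other list several narrow ones.

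The median rank shift of the shared peaks was 1.75 points, with quartiles of -10.2 and 21.3 and an SD over peaks of 30.9. Between the MZsox19b replicates the median was 4.41, the quartiles were -2.41 and 20.0 and the SD was 23.1. The middle of the distribution was therefore no further from 0 than between replicates, and its spread was wider. The rank correlation of the percentiles was 0.50 between the genotypes (Spearman, over 58215 peaks) and 0.69 between the replicates (109006 peaks).

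A shift of 20 percentile points or more was used to call a peak raised or lowered. Raised were 15129 peaks (26.0%) and lowered 10255 (17.6%). Between the replicates the shares were 25.1% raised and 7.78% lowered. In one-to-one pairs 22.1% were raised and 20.5% lowered between the genotypes, against 20.9% and 9.64% between the replicates. The replicate lists differ in length, with 141070 and 172867 peaks. The balance of both directions depended on the pairing and on the list in which ranks were taken. With pairs searched from the MZspg list, 20.0% were raised and 22.4% lowered. Between the replicates, searched from replicate 2, the shares were 18.0% and 12.1%. With ranks among shared peaks only, 21.6% were raised and 21.5% lowered between the genotypes, and 15.8% and 15.9% between the replicates. Both shares were then above those of the replicates by a like amount. By construction a peak above the WT percentile 80 could not be raised by 20 points and a peak below 20 could not be lowered by as much.

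**Figure D1:**
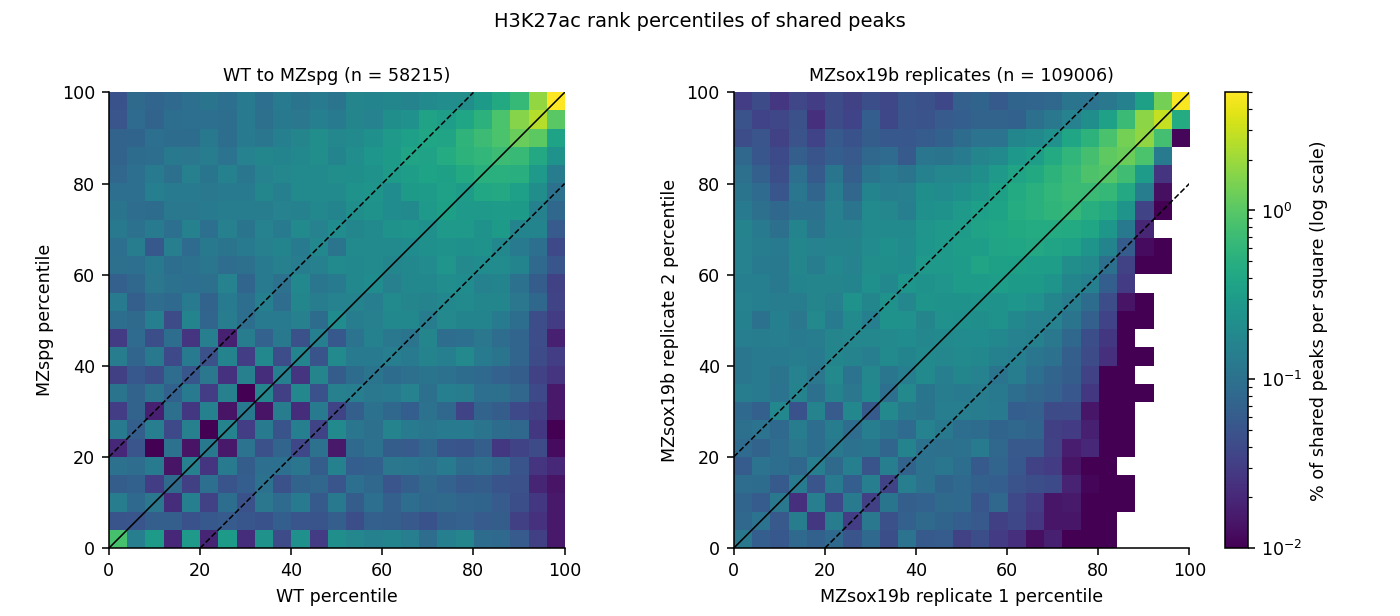
H3K27ac rank percentiles of shared peaks, WT against MZspg (left, 58215 peaks) and MZsox19b replicate 1 against replicate 2 (right, 109006 peaks), coloured by the percentage of shared peaks in each square on a log scale. The solid line marks equal percentiles and the dashed lines a shift of 20 points. The lower right corner, strong in the first list and weak in the second, holds peaks on the left and none on the right; 17.6% of peaks lie below the lower dashed line on the left and 7.78% on the right.

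Pairing itself moved ranks. An MZspg peak that spanned several WT peaks gave its high rank to each of them, and the 10449 WT peaks in this position had a median shift of 17.6 points. The 2578 WT peaks that spanned 2 or more MZspg peaks had a median shift of -6.99. The one-to-one pairs had a median shift of 0.29 (2.90 between replicates) and an SD of 29.9 (21.5). Values below are over all shared peaks unless one-to-one pairs are named. For part of the results both are given, and the others can differ in one-to-one pairs.

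The size of the shift varied with the strength of the peak, in a way that depended on how strength was measured. Shared peaks were divided into 10 equal bins by WT percentile. In the lowest bin, up to percentile 16.7, the median shift was 41.3 points, and it was 40.7 in the same bin of the replicates. The WT percentile is itself part of the shift, so peaks low in WT could mainly rise. In bins of the mean of both percentiles the median was -0.80 in the lowest bin (4.99 in the replicates). It was largest in the fourth, at 10.8 (15.0 in the replicates). The fourth bin of one-to-one pairs had 4.52 (10.0 in the replicates). The values that follow are again by WT percentile. In the seventh bin, from percentile 75.3 to 82.9, the median was -3.30 with a lower quartile of -26.1, whereas in the seventh bin of the replicates, from 68.8 to 76.8, the median was 2.50 and the lower quartile -8.07.  At the very top the order was better kept: in the highest bin the median shift was -0.24, although the SD of 13.9 compared with 1.93 between the replicates.

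The same was seen in counts of the highest peaks. Of the 100 highest WT peaks, 98 were shared and 44 had their partner among the 100 highest MZspg peaks, whereas between the replicates all 100 were shared and 54 stayed in the top 100. Of the 10000 highest WT peaks, 8962 were shared and 6459 had a partner among the 10000 highest. The replicates kept 8304 of 10000. A partner below rank 50000 was found for 496 of the 10000 highest WT peaks and for 0 of the 10000 highest peaks of MZsox19b replicate 1 (a count of 0 allows up to 0.03%). Among the 1000 highest, 16 WT peaks had such a low partner.

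H3K4me3 was not used for the ranks and divided the shared peaks next. A WT H3K4me3 peak overlapped 25214 of the shared peaks (43.3%), compared with 20.0% of the 67387 unshared WT peaks. Shared peaks with WT H3K4me3 had a median shift of 0.34 and those without it of 5.94, but the former were also stronger, with a median WT percentile of 79.4 against 57.0, and between the replicates the same split gave 0.89 and 6.66. The unmatched difference of -5.60 between the classes was therefore near that of the replicates, -5.77. After matching within 10 bins of the mean of both percentiles, peaks with WT H3K4me3 stood lower than peaks without it, by a difference of -10.4 points, compared with 0.91 in the replicates.

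This matched difference depended on whose H3K4me3 list made the classes. With the MZspg list it was 13.9, with the MZsox19b list, of neither genotype compared, 5.13, and with only the 10000 highest WT H3K4me3 peaks 11.1. With bins of the WT percentile in place of the mean percentile it was -0.52. The shared peaks were therefore divided by both H3K4me3 lists. The MZspg list is shorter, with 22484 H3K4me3 peaks against 53429 in WT on the sequences kept. The study also lists fewer reads for the MZspg H3K4me3 library than for that of WT. A place without an MZspg H3K4me3 peak need therefore not have lost the mark.

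Of the shared peaks, 14671 overlapped H3K4me3 in both genotypes. These were the strongest class, with a median WT percentile of 87.5. Over all strengths together their ranks moved least, with a median shift of 1.33, which was not so at middling strength (below). In the 10543 peaks with H3K4me3 in WT only, the median shift was -6.04, and 32.1% were lowered. In the 927 peaks with H3K4me3 in MZspg only, the median shift was 22.2, and 51.9% were raised. The 32074 peaks with H3K4me3 in neither list had a median shift of 5.56. In the MZsox19b replicates, the same 4 classes had medians of 0.02, 4.64, 7.96 and 6.64, and 6.41% of the class with H3K4me3 in WT only were lowered. Neither H3K4me3 list is of the genotype of these replicates. Peaks with H3K4me3 in WT only were lower than peaks with it in both genotypes after matching for strength, with a difference of -12.1 points, whereas in the replicates they were higher by 4.49. In one-to-one pairs the class medians were 1.05, -7.56, 18.7 and 1.40, and the matched difference was -11.7. The replicates gave -0.05, 4.14, 7.64 and 4.59 for the classes and 4.60 for the difference.

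**Figure D2:**
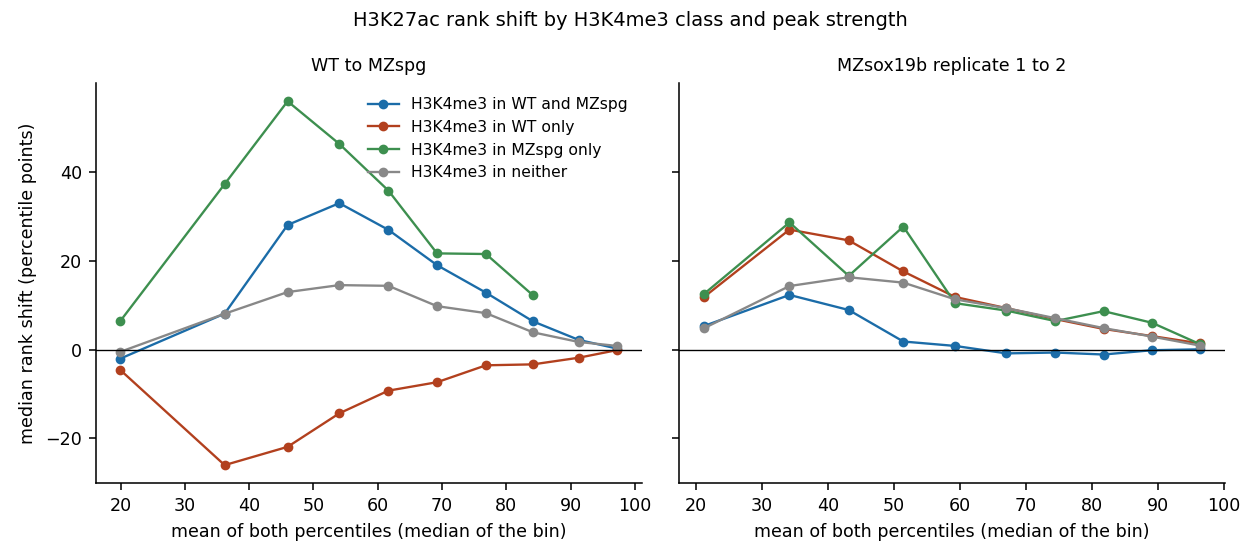
Median rank shift (percentile points) in 10 bins of the mean of both percentiles, for shared peaks divided by overlap with the WT and MZspg H3K4me3 lists; left, WT to MZspg, right, MZsox19b replicate 1 to 2, with points of at least 50 peaks. On the left, peaks with H3K4me3 in WT only lie below 0 in every bin, at -26.0 in the second, and peaks with H3K4me3 in both lie at 32.9 in the fourth, whereas on the right peaks with H3K4me3 in WT only lie above 0.

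The classes lay further apart at middling strength than at the top, where a peak can shift little because its mean percentile is high. The SD of the shift over all shared peaks was 48.1 in the third bin and 2.32 in the highest. Closeness of the classes at the top can follow from this limit. In the third bin, around a mean percentile of 46.0, the median shift was 28.0 for H3K4me3 in both genotypes, -21.9 for WT only, 55.8 for MZspg only and 12.9 for neither. In the highest bin, around 97.2, the first, second and last of these classes were at 0.22, -0.14 and 0.81. In the replicates, peaks with H3K4me3 in WT only were at 17.6 in the fourth bin and peaks with it in both at 1.80, where the genotypes had -14.4 and 32.9, so the order of these classes was the opposite of that between the genotypes. Between the genotypes, the third bin of one-to-one pairs gave 14.7 for both, -30.1 for WT only, 52.1 for MZspg only and 6.77 for neither.

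The H3K4me3 peaks at WT-only places were lower in rank. They had a median percentile of 45.4 within the WT H3K4me3 list, against 86.7 at places with H3K4me3 in both genotypes. Among the shared peaks at the 10000 highest WT H3K4me3 peaks, 9509 also overlapped an MZspg H3K4me3 peak. Their median H3K27ac shift was 0.81 with 2.31% lowered. The other 589 had no MZspg H3K4me3 peak, and of these 25.6% were lowered, with a median shift of -1.35 (-11.0 in the 355 one-to-one pairs, of which 37.5% were lowered).

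The relation was also read from the shifts to the mark. Of shared peaks with WT H3K4me3, 57.3% of the raised (95% interval 55.9 to 58.8%), 68.0% of those in between (67.3 to 68.7%) and 20.9% of the lowered (19.7 to 22.1%) overlapped an MZspg H3K4me3 peak. Raised peaks start from low WT ranks, so peaks of WT percentile 60 to 80 were taken alone: MZspg H3K4me3 was then found at 76.1% of 707 raised, 51.1% of 3301 in between and 20.0% of 1639 lowered peaks. Only the WT rank was held: in MZspg the raised peaks of this band had a median percentile of 91.9 and the lowered peaks of 25.9. For the same band of MZsox19b replicate 1, peaks were classed by their shift to replicate 2. The shares with MZspg H3K4me3 at raised, in-between and lowered peaks were then 20.6%, 32.7% and 41.4%, which is the reverse order. MZspg H3K4me3 is of the genotype of the MZspg H3K27ac list and of neither replicate, so the replicates are not a like comparison here. When the WT H3K4me3 percentile was also held, at 60 to 80, the shares between WT and MZspg were 84.6% of 214, 60.9% of 1018 and 30.2% of 348 peaks. The replicates gave 30.1%, 45.1% and 53.5%. At H3K4me3 percentiles of 40 to 60 the shares between WT and MZspg were 43.4%, 21.5% and 17.9% (in the replicates 8.04%, 12.8%, and 19 of 136 lowered peaks), and at 20 to 40 they were 25.6%, 15.7% and 10.7%. In the band of 20 to 40 the replicates did not show the reverse order, with 14.4% of 104 raised, 7.10% of 817 in-between and 7.94% of 126 lowered peaks. These bands were chosen after the data were seen.

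Where both genotypes had H3K4me3, its own rank could be followed. Its median shift in H3K4me3 percentile was -16.4 at raised, -13.4 at in-between and -32.4 at lowered H3K27ac peaks. For peaks raised, in between and lowered from replicate 1 to replicate 2 the same H3K4me3 shift was -20.7, -14.7 and -22.7, so lowered peaks were the most negative class there too. These percentiles were taken in each full H3K4me3 list, and the MZspg list is the shorter. Over the 14671 peaks the rank correlation of both shifts was weak, 0.12, and -0.03 when the shift between the replicates was set beside the same H3K4me3 shift.

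At shared peaks without WT H3K4me3, MZspg H3K4me3 was rare throughout, at 4.44% of raised, 2.32% of in-between and 1.17% of lowered peaks (1.12%, 1.18% and 0.996% in the replicates). Their shift varied little with the distance to the nearest WT H3K4me3 peak. The median was 6.67 within 1 kb and between 5.36 and 7.23 in the 4 classes further away. The corresponding values of the replicates ran from 9.13 to 4.51. In one-to-one pairs the median was 0.67 within 1 kb and 2.10, 2.01, 3.46 and 0.82 in the classes further away.

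The place of the shifted peaks in the MZsox19b lists was looked up next. Of the lowered peaks, 65.9% had a peak in both MZsox19b replicates, and of the raised peaks 65.2%. Both shares were below the 77.1% of the 32831 peaks in between. The lowered peaks had a median percentile of 73.5 in WT and 26.4 in MZspg, and those with an MZsox19b peak stood at 75.9 in replicate 1 and 80.5 in replicate 2. The raised peaks went from 32.3 in WT to 80.2 in MZspg, and in MZsox19b they stood at 79.4 and 81.7. Raised and lowered peaks thus stood at like percentiles in MZsox19b. Since the classes were made from the WT and MZspg ranks, these values do not show which of the genotypes MZsox19b was nearer to. Peaks in between stood at 79.4 in WT and 81.3 in MZspg, and at 89.3 in MZsox19b replicate 1. The MZsox19b percentiles leave out places with no MZsox19b peak.

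Shifts were then compared between chromosomes. On 24 of 25 chromosomes the median shift was positive, and the exception was chromosome 4 with -0.83 (95% interval -1.23 to -0.51, 6648 peaks). Chromosome 5 was next with 0.74, and the highest medians were those of chromosome 15 with 4.26 and chromosome 14 with 3.05. In one-to-one pairs 23 of 25 medians were positive, with chromosome 4 at -3.34 and chromosome 5 at -0.40. The range over chromosomes was 5.09 points, against 1.70 between the replicates, in which chromosome 4 had the highest median, 5.16. On chromosome 4, 25.7% of the shared peaks were lowered, compared with between 14.4% and 18.2% on each of the other chromosomes.

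The low median of chromosome 4 came from its long arm, taken here as positions from 24 Mb to the end. This arm is known to be rich in repeats. Its 5528 shared peaks had a median shift of -2.37, and 28.3% were lowered. The 1120 shared peaks on the remainder of chromosome 4 had a median of 3.91 with 12.9% lowered, and all peaks outside the long arm one of 2.14 with 16.5%. The difference between the long arm and the rest was -4.51 points (0.66 between the replicates), and the difference was -6.20 in one-to-one pairs (1.24). With tied peaks placed at their mean rank, chromosome 4 remained lowest at -0.75 and chromosome 15 highest at 4.33.

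**Figure D3:**
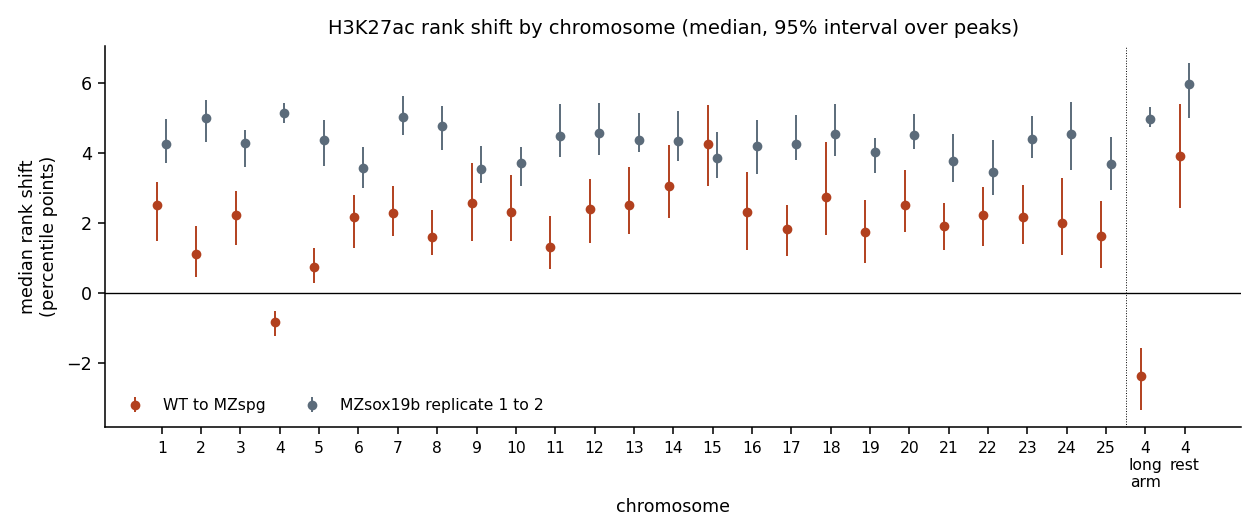
Median rank shift (percentile points) of shared peaks on each chromosome and on both parts of chromosome 4, WT to MZspg (red) and MZsox19b replicate 1 to 2 (grey); bars are 95% binomial intervals of the median over peaks, which are not independent. Chromosome 4 lies lowest for WT to MZspg (-0.83, long arm -2.37) and highest among chromosomes for the replicates (5.16).

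The share of WT H3K4me3 places that also had an MZspg H3K4me3 peak was lower on the arm. The strength of WT H3K4me3 on and off the arm was not compared. There, 49.6% of the shared peaks overlapped WT H3K4me3, and of those 35.4% overlapped MZspg H3K4me3, against 42.7% and 61.0% outside the arm. Long-arm peaks with WT H3K4me3 had a median shift of -6.11 and those without it of 1.94, compared with 0.55 and 6.38 elsewhere. In the replicates the medians were 3.88 and 6.09 on the arm and 0.55 and 6.75 elsewhere, and MZspg H3K4me3 was found at 21.8% of the places with WT H3K4me3 on the arm and 54.5% elsewhere. Between the genotypes both classes were thus lower on the arm. In one-to-one pairs the classes with and without WT H3K4me3 had -8.03 and -1.38 there, against 0.26 and 2.61 elsewhere. With the arm left out, the matched difference between the H3K4me3 classes was -8.43 in place of -10.4.

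To see whether neighbours moved together, shared WT peaks were joined into runs with gaps of at most 5000 bp. Single peaks numbered 18009 and had a median shift of 0.33, and 10515 peaks lay in the 627 runs of 10 or more with a median of 3.25. The difference of 2.92 compared with 4.20 between the replicates. Of the WT peaks in long runs, 35.8% shared an MZspg partner with other WT peaks, and nearly no single peak did (0.02%). In one-to-one pairs the difference was -3.63 (0.72 between the replicates), and single peaks and runs of 10 or more had medians of 0.56 and -3.07. Runs were rebuilt from one-to-one pairs, which left 2685 peaks in 158 long runs. Of these peaks 54.2% overlapped WT H3K4me3, against 29.6% in the long runs of all shared peaks. The direction of shift in clusters thus differed between the 2 sets of pairs, and the cause was not tested.

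Shifts of close neighbours were correlated, by an amount that depended on the pairing. Between neighbours less than 1 kb apart the correlation of shifts was 0.36 (Pearson, 17381 pairs), and 0.31 over the 11771 pairs that had different MZspg partners. For the replicates the values were 0.19 and 0.14. With 50% reciprocal overlap the correlation was 0.17, against 0.12 in the replicates. With different partners, the correlation was 0.24 at 2 to 5 kb, 0.15 at 5 to 10 kb, 0.08 at 10 to 20 kb and 0.02 beyond 50 kb. Among the 2118 neighbours under 1 kb of which both had shifted by 20 points or more, 77.0% had shifted in the same direction (73.5% of 2769 in the replicates), and beyond 50 kb 52.0% of 1501 had. These correlations describe peaks that share a library and, when close, fragments.

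**Figure D4:**
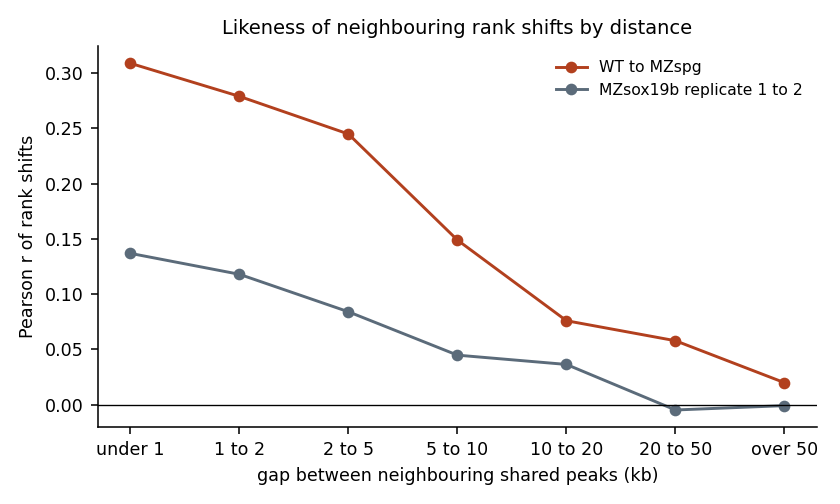
Pearson correlation of the rank shifts of neighbouring shared peaks that overlap different partners, by the gap between them, WT to MZspg (red) and MZsox19b replicate 1 to 2 (grey). For WT to MZspg the correlation declines from 0.31 under 1 kb to 0.02 beyond 50 kb, and it lies above that of the replicates, 0.14 under 1 kb, at every distance.

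The median shifts of the 627 long runs went from -48.1 to 61.4, with 108 runs above 20 and 26 below -20. The 1885 long runs of the replicates went from -12.7 to 62.2, with 169 above 20 and 0 below -20, which allows a share of up to 0.159%. Runs with a strongly negative median were thus found between the genotypes and not at this depth between the replicates. Shifts from replicate 1 to replicate 2 lean upward, however, with 25.1% of peaks raised and 7.78% lowered. The absence of negative runs can depend on this direction, and runs were not counted in the opposite one.

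The run with the most negative median lay at chr25:25269959-25305339 and held 17 shared peaks over 35.4 kb. Its shifts lay between -84.4 and 0.95 with a median of -48.1, and 13 peaks were lowered and 0 raised. Its WT peaks had a median percentile of 55.4 and their partners of 1.95. All 17 overlapped WT H3K4me3, with fold enrichment of up to 3.76, and 2 overlapped MZspg H3K4me3. In MZsox19b, 13 and 17 of the peaks were found, at median percentiles of 94.7 and 96.0. The run at chr4:28871051-28888441, on the long arm of chromosome 4, followed with 19 shared peaks, a median shift of -45.4, 15 peaks lowered and 1 raised. It too was high in MZsox19b, with medians of 95.6 and 99.6 over 19 peaks each. A run of 13 peaks at chr18:31566998-31588079 had a median shift of -40.6, with medians of 1.75 and 60.7 in the MZsox19b replicates, so that the replicates themselves differed there.

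The 3 runs with the most positive medians differed in how they were paired. At chr9:31201753-31219289, 12 WT peaks met 3 MZspg peaks and had a median shift of 61.4. At chr5:47985937-48010128, 14 narrow WT peaks with a median width of 221.5 bp lay in 2 MZspg peaks, the median partner being 25381 bp wide, and the median shift was 60.4. Their values rest on a few wide MZspg peaks. At chr4:69964549-69986857, in contrast, 11 WT peaks had 11 different partners and all 11 were raised, by 45.8 to 94.5 points. There, WT percentiles lay between 2.76 and 50.9 and MZspg percentiles between 96.7 and 97.9. Of these 11 peaks 0 overlapped WT H3K4me3 and 10 overlapped MZspg H3K4me3. This run lies on the same long arm that stood low as a whole.

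The width of a peak comes from the same signal as its rank. MZspg partners were somewhat wider than the WT peaks, 454 against 330 bp in the median, with a median log2 width ratio of 0.27 (0.19 between the replicates). In one-to-one pairs it was 0.13 (0.10). Raised peaks went from a median of 213 bp in WT to 637 bp in MZspg, a median log2 ratio of 1.42, and 62.2% of them at least doubled in width. Lowered peaks went from 356 to 207 bp, a log2 ratio of -0.64, and 34.5% of them were reduced to 50% or less of their WT width. These values were near those of the replicates, in which raised peaks had a log2 ratio of 1.19 with 56.6% doubled, and lowered peaks went from 366 to 212 bp, a ratio of -0.71 with 34.8% reduced as much. In one-to-one pairs, raised peaks had a ratio of 0.90 with 45.7% doubled, and 0.73 with 35.9% in the replicates. Over all shared peaks the rank correlation of width ratio and shift was 0.69, and between the replicates it was 0.64. The summits of WT peaks and their partners lay 62 bp apart in the median.

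**Figure D5:**
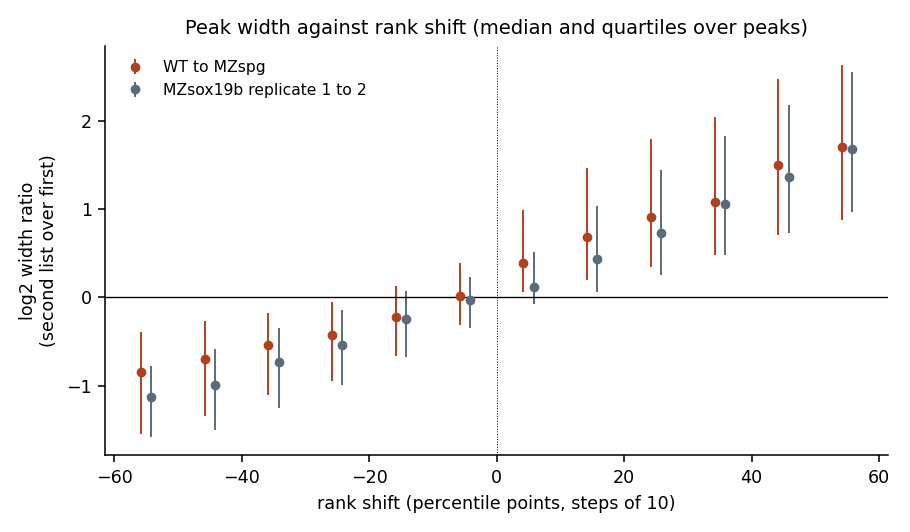
Log2 ratio of peak width, second list over first, in steps of 10 points of rank shift from -60 to 60, WT to MZspg (red) and MZsox19b replicate 1 to 2 (grey); points are medians and bars quartiles over peaks. In both comparisons the median ratio increases from step to step, for WT to MZspg from -0.85 in the lowest step to 1.70 in the highest.

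Wide WT peaks behaved differently from those of the replicates. WT peaks of 2000 bp or more (1728 peaks) had a median log2 width ratio of -0.31, with a lower quartile of -1.86, and 37.6% of them kept at most 50% of their width. In MZsox19b, 6778 replicate 1 peaks of this width had a median ratio of 0.02 and a lower quartile of -0.31, and 10.2% were reduced as much. In one-to-one pairs the shares were 28.6% of peaks for the genotypes (598 pairs) and 0.07% for the replicates (2842 pairs), although the medians, -0.04 and 0.03, were close to 0 in both. The shift of wide peaks had an SD of 20.0 points over all pairs, against 5.03 in the replicates, and of 26.5 against 4.45 in one-to-one pairs.

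Peaks that stood above percentile 90 in at least 1 of the lists were taken to show single places, in one-to-one pairs. There were 7845 such pairs with WT H3K4me3, of which 447 were raised and 379 lowered, and 2797 without, of which 605 were raised and 544 lowered. Over all one-to-one pairs, 22.1% were raised and 20.5% lowered. The shares of the pairs without WT H3K4me3 were near these values, and those of the pairs with it were far below. Over all one-to-one pairs with WT H3K4me3, 15.1% were raised and 18.8% lowered, and over those without it 28.2% and 22.0%. Strength was not matched: the in-between pairs with WT H3K4me3 had median percentiles of 94.6 in WT and 95.2 in MZspg. The 5 largest shifts in each direction were followed in each class, at most 1 per 50 kb. The 10 raised places had a WT fold enrichment of 1.81 to 2.14 and an MZspg fold enrichment of 7.07 to 15.6. The 10 lowered places had 6.65 to 12.7 in WT and 1.77 to 2.09 in MZspg. All 10 raised places overlapped MZspg H3K4me3, including the 5 without WT H3K4me3, and of the 10 lowered places 0 did. Among all raised pairs of this strength, 86.1% of the 447 with WT H3K4me3 and 11.7% of the 605 without it did. Among the lowered pairs, 23.0% of the 379 with WT H3K4me3 and 0 of the 544 without it did. The 5 raised places without WT H3K4me3 are thus not typical of their class. The raised places were chosen as strong in MZspg and the lowered places as weak there. The contrast between the 10 raised and the 10 lowered places can follow from that choice.

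The largest fall with WT H3K4me3 was that of chr5:25097436-25101449. This WT peak was 4014 bp wide with a fold enrichment of 12.0 (percentile 98.2), and its MZspg partner was 156 bp wide with a fold enrichment of 1.90 (percentile 1.17). In the MZsox19b replicates the fold enrichment was 6.55 and 5.47. Both lay between the genotypes compared, which can follow from the choice of the largest fall. Its WT H3K4me3 fold enrichment was 3.72, and neither mutant had an H3K4me3 peak there.

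At chr2:22377674-22378093 the fold enrichment of 10.7 in WT stood against 1.95 in MZspg, while the MZsox19b replicates had 28.3 and 22.6. H3K4me3 there was 27.6 in WT and 118 in MZsox19b, with no MZspg peak. The pattern at chr4:68087242-68087723 was similar, with H3K27ac at 8.36, 1.77, 18.0 and 23.1 and H3K4me3 at 14.9 in WT, 20.5 in MZsox19b and no MZspg peak. At chr16:6198122-6199247 H3K27ac was 9.19 in WT, 1.98 in MZspg, and 28.9 and 20.2 in MZsox19b, while H3K4me3 was lower than at the places before, 2.37 in WT and 7.00 in MZsox19b with no MZspg peak. In these 3 places H3K27ac was higher in WT and MZsox19b than in MZspg. They were chosen as weak in MZspg, so this alone does not show which genotype MZsox19b was nearer to. Chr19:2104222-2107210 was different, since its H3K27ac peak of 10.2 in WT met 1.99 in MZspg, no peak in MZsox19b replicate 1 and 1.97 in replicate 2.

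Lowered places without WT H3K4me3 had a lower fold enrichment in both mutants than in WT, or no MZsox19b peak. Their percentiles lay between 1.48 and 5.34 in MZspg. Where MZsox19b had a peak, it stood further up its list, at percentiles between 13.6 and 69.4. The largest fall was that of chr3:42423563-42425662, a WT peak of 2100 bp with a fold enrichment of 10.7, against 1.99 in MZspg and 2.43 and 2.23 in MZsox19b. The highest of them in WT, chr24:25197939-25200854, had a fold enrichment of 12.7 over 2916 bp, compared with 2.09 over 155 bp in MZspg, and no peak in either MZsox19b replicate. At chr8:18629384-18630205 the values were 9.37 in WT, 2.09 in MZspg and 2.53 and 2.48 in MZsox19b. The places at chr22:35159149-35160993 and chr7:51659287-51661467 started from 6.65 and 6.94 in WT. In MZsox19b replicates 1 and 2 the former stood at percentiles 38.3 and 39.6 and the latter at 13.6 and 69.4. In the wider set of 544 lowered pairs of this class, however, 83.6% had a peak in both MZsox19b replicates, at median percentiles of 87.3 and 90.4, so the named places are not typical of it.

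Among raised places with WT H3K4me3, chr16:34564891-34565025 shifted most, from a fold enrichment of 1.87 in WT to 8.34 in MZspg, with 4.49 and 4.20 in MZsox19b. Its WT peak of 135 bp met an MZspg peak of 1596 bp. At chr4:62185238-62185364 the values were 2.06 in WT, 12.1 in MZspg and 6.27 and 5.47 in MZsox19b, and H3K4me3 was 7.74 in WT, 23.4 in MZspg and 19.5 in MZsox19b. At chr10:12517268-12517400 H3K27ac was 2.09 in WT and 9.43 in MZspg. H3K4me3 there was 8.98 in WT, 24.4 in MZspg and 30.8 in MZsox19b. In all 5 places of this group the MZsox19b H3K27ac values lay between those of WT and MZspg. The places were chosen as the largest rises from WT to MZspg, so values in between can follow from that choice. The remaining members were chr7:73631142-73631263, with H3K27ac of 1.97 in WT and 7.45 in MZspg, and chr20:41809561-41809729, with 2.14 and 10.9.

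Raised places without WT H3K4me3 were led by chr5:54105019-54105160, with a fold enrichment of 1.87 in WT and 15.6 in MZspg, no peak in MZsox19b replicate 1 and 2.42 in replicate 2. MZspg H3K4me3 there had a fold enrichment of 23.0, with no H3K4me3 peak in WT or MZsox19b. At chr20:24376991-24377132 H3K27ac was 1.83 in WT, 12.1 in MZspg and 3.63 in MZsox19b replicate 2 alone. At chr7:43857363-43857533 it was 1.86 in WT and 10.9 in MZspg, with no peak in MZsox19b and an MZspg H3K4me3 fold enrichment of 12.8. Of these 3 places, the one on chromosome 20 thus also had an H3K27ac peak at percentile 80.3 in MZsox19b replicate 2. The last members, chr4:69981451-69981601 in the raised run of that arm and chr15:9877517-9877934, had a peak in both MZsox19b replicates, with 3.93 and 6.61 at the former and 4.05 and 5.85 at the latter.

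Across the wider set behind these places, MZspg H3K4me3 was found at 86.1% of the 447 raised pairs with WT H3K4me3 (95% interval 82.6 to 89.0%), at 89.8% of the 7019 in between and at 23.0% of the 379 lowered (19.0 to 27.4%). Without WT H3K4me3 it was found at 11.7% of the 605 raised, at 3.22% of the 1648 in between and at 0 of the 544 lowered, which allows a share of up to 0.551%. In both classes the lowered pairs had the lowest share. They entered through a high WT percentile and stood lower in MZspg, at median percentiles of 58.2 with and 47.0 without WT H3K4me3. The raised pairs stood at 92.6 in MZspg in both classes. A lower share at lowered pairs can follow from this choice, and strength in MZspg was not matched here.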

How the data were processed

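Chromatin of whole zebrafish embryos was immunoprecipitated for H3K27ac and H3K4me3. The authors mapped the reads to danRer11 with Bowtie2 (version 2.3.2.2) and called peaks for each library with MACS2 at a q-value of 0.05, with pooled inputs as background. The deposited lists give for each peak the fold enrichment over local background (a ratio), the -log10 p-value, the -log10 q-value, a score derived from it and the summit offset. All 7 lists are peak lists, the smallest -log10 q in the H3K27ac lists of WT and MZspg being 1.31 and 1.30. The lists hold no read depth. The study lists read numbers for each library, which did not enter any value given here, and the intervals rest on counts of peaks.

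Peaks were ranked by fold enrichment, then -log10 q, then order in the list. Each WT peak was paired with its best-ranked overlapping MZspg peak. Matched differences were medians compared within 10 bins of mean percentile. Intervals are 95% Wilson intervals of shares and binomial intervals of medians, and cover counting error only. No test was made with 1 library a side. Positions are 1-based. The named peaks were, among one-to-one pairs with a percentile of 90 or more in either list, the 5 largest rises and falls with and without WT H3K4me3, at most 1 per 50000 bp, and the 3 most raised and lowered runs of 10 or more peaks. Members and lists were chosen with earlier results of these data known. Other pairings, overlaps, ranks, list lengths, class definitions and tie rules were tried as alternatives. Python 3.11.15 was used with numpy 2.4.6, pandas 2.3.3, scipy 1.17.1 and matplotlib 3.10.9. The overlap search was checked against an exhaustive search on the WT and MZspg peaks of a single chromosome. Recovery of shifts was checked on a simulated list with WT positions and altered fold enrichment. Its positions were identical to those of WT and its noise was small. This checks the calculation only and not the shifts between WT and MZspg. Planned gene lists and sequence features needed an annotated genome of this build and were not analysed here.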

Additional observations from a re-analysis of the deposited data

Results flagged for a closer look

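Some H3K27ac peaks lay outside the sequences compared in the report, and their pairs are given here as values. On sequences other than chromosomes 1 to 25 there were 16087 WT and 17837 MZspg peaks, of which 7796 WT peaks (48.5%) were shared, with a median rank shift of 2.24 (quartiles -10.2 and 19.6). On chromosome 16 from 36 to 37 Mb, 45 of 234 WT peaks (19.2%) were shared, with a median shift of 0.13 (quartiles -22.6 and 29.9).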

How the results depend on the processing

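With 50% reciprocal overlap the neighbour correlation was 0.17 in place of 0.36. The median shift stayed between -0.79 and 2.69 over 12 alternatives, and the difference between raised and lowered peaks in the share with MZspg H3K4me3, 36.5 percentage points, between 26.4 and 43.0 over 14. With one-to-one pairs, 10073 peaks were raised, the difference of the chromosome 4 long arm was -6.20 and that of long runs against single peaks -3.63. With 50% reciprocal overlap, 32533 peaks were shared, 4677 raised and 5598 lowered, and the differences were -5.67 for the arm, -3.02 for runs, -5.90 for H3K4me3 classes matched and 0.30 unmatched. Searched from the MZspg list, they were -6.25, -4.32 and, for matched classes, -8.94. With ranks among shared peaks only, the arm was at -8.10 and the class difference at -8.50. With the 50000 highest peaks, 25456 were shared, 6333 raised and 3618 lowered, and the class difference was -3.21, nearer to 0 than the -6.42 of the replicates at that setting. With peaks within 1000 bp merged, 9385 were raised and 6819 lowered, and it was -12.8. It was -9.37 ranked by -log10 q (-4.71 in the replicates), -7.02 with H3K4me3 within 1000 bp, -0.52 in bins of the WT percentile and 11.1 with the 10000 highest WT H3K4me3 peaks. Chosen after seeing the data, the MZspg list gave 13.9, the MZsox19b list 5.13 and leaving out the long arm -8.43. The causes were not tested. No paired analysis was possible because each side had 1 library, and for the same reason no library could be left out. Spread between libraries was measured in 1 pair of replicates of another genotype.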
